A study of Mus musculus with 24 samples.

Results

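The start codon factors eIF1 and eIF5 are here a set of 8 genes chosen by name: Eif1, Eif1b, Eif1ax, Eif1ad, Eif5, Eif5a, Eif5a2 and Eif5b. Of these, 7 genes carried 18 probe sets, out of 45101 on the array. The annotation used here names no probe set for Eif1, so Eif1 has no value and could not be set beside its paralogue Eif1b. One probe set per gene was selected on the highest mean log2 signal over the 24 arrays, and all 7 genes passed the filter on low signal that left 11035 genes to test. That choice of probe set was close for Eif5, with a mean log2 signal of 13.48 for the chosen probe set and 13.38 for the next. The fall of Eif1b recruitment under Rps19 shRNA was already known when the genes were listed, so it is given as a description and its p-value is not independent evidence.

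The start codon of an mRNA is found by the small ribosomal subunit as it scans from the cap. eIF1 and eIF1A sit on that subunit and hold it in an open, scanning state, eIF5 triggers GTP hydrolysis on eIF2 once the start codon is paired, and eIF5B then joins the large subunit. In spite of its name, eIF5A acts mainly at elongation and termination, where it helps ribosomes past difficult stretches such as runs of proline, and it is the only known protein that carries hypusine, a modified lysine made from spermidine. Eif1 and Eif1b encode close paralogues, as do Eif5a and Eif5a2.

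The arrays came from immortalized mouse erythroblasts grown with erythropoietin, stem cell factor and dexamethasone in medium without serum. Each of 12 sucrose gradients gave 2 pools of RNA, a polysomal pool and a subpolysomal pool of the remaining fractions, after cycloheximide had stopped the ribosomes. There were 4 groups of 3 gradients, labelled as biological replicates: untransduced cells (labelled wt, shRNA none), a control construct (ev in the titles, sc in the shRNA field, with neither expanded), cells with shRNA against Rps19, a protein of the small ribosomal subunit, and cells with shRNA against Rpl11, a protein of the large one. Lentivirus had been delivered 3 days before harvest, and 7 µg of RNA was extracted. The cells are a line, so the 3 gradients of a group measure the spread of cultures and not of animals.

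Recruitment is used below for log2 polysomal minus log2 subpolysomal signal in a gradient, and level for the mean of both log2 signals. A recruitment of 0 means equal signal in both pools after each array was scaled to the same trimmed mean. A pool of cells gives no count of cells, so fewer cells holding an mRNA and less of it per cell cannot be told apart. The common scaling also removes any change in the total amount of RNA in a pool.

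The arrays matched their labels for both targets. The Rps19 level fell by 1.53 on the log2 scale under Rps19 shRNA (SE 0.16, limma adjusted p = 0.00369), and the Rpl11 level fell by 2.66 under Rpl11 shRNA (SE 0.25, limma adjusted p = 0.0011). The Rps19 level also fell under Rpl11 shRNA, by 0.57 (SE 0.16, limma adjusted p = 0.0272). Of 10 erythroid markers 8 had a probe set. Of these, 7 passed the filter, among them Gata1, Klf1 and Alas2, while Hba-a1 (percentile 27.8 of all probe sets) did not. The 4 megakaryocyte markers also passed it, with Pf4 at percentile 93.8 of all probe sets, beside 3 of 6 myeloid, 1 of 3 lymphoid, 1 of 3 mast cell and 1 of 4 fibroblast markers. The summed megakaryocyte marker signal ranged from 2552 to 6363 over arrays of untransduced cells, 2079 to 6608 with the control construct, 1947 to 4614 with Rps19 shRNA and 2571 to 5005 with Rpl11 shRNA. The Rpl11 arrays stood apart in RNA quality: their Gapdh log2 3′ to 5′ signal ratio ran from -0.46 to 3.90, against -0.42 to 0.42 on the other 18 arrays. It was 1.23 to 3.90 in replicates 2 and 3. In replicate 1 it was 0.99 in the polysomal pool and -0.46 in the subpolysomal pool, so that gradient was uneven between its pools. The part of RNA quality in the Rpl11 results below was not tested beyond the fits that are named there.

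Transcription of the 7 genes starts, in RefSeq's GRCm38.p6 annotation, at 12 places. The 30 bases around the start are shown for the 4 genes that the results turn on, because the first transcribed bases of an mRNA are known to bear on its translation: mRNAs of ribosomal proteins start with a C followed by a run of pyrimidines, the 5′ TOP motif. Capitals mark the first 5 transcribed bases. Eif1b lies at chr9:120492581-120492610 (plus strand), Eif5 at chr12:111538076-111538105 (plus strand), Eif5a2 at chr3:28781252-28781281 (plus strand) and one of 6 starts of Eif5a at chr11:69921382-69921411 (minus strand).
Eif1b: tcacgtggcggcggcgcgcggggctAAATA
Eif5: ggagaagcgtgagatcgacgtgcatGCGAG
Eif5a2: gtcgcggcggggcgggcccgggctgGGCGG
Eif5a: gggagggtccatgcgcttgcgcagtGCGGG

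None of the 12 starts of the 7 genes had a C followed by 4 pyrimidines (0 of 12), which 2.51% of 32851 annotated starts have. The letters CACGTG, which read the same on both strands and are the core of the sites bound by Myc and related factors, were found between 250 bases before and 50 after the start of Eif1b, Eif5a2 and 3 of the 6 starts of Eif5a. The same letters lie in 7.15% of all such windows. These matches describe the sequence and were not tied to any measurement here.

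In untransduced cells the 7 mRNAs spread over the gradient from mostly polysomal to mostly subpolysomal. Eif5a2, Eif1ax and Eif1b leaned to the polysomes and Eif5a to the subpolysomal pool, so 3 members were higher and 1 was lower than 0 at an adjusted p under 0.05. Over all 11035 genes 40.9% passed the same test, 19.5% higher and 21.4% lower, so passing it sets no gene apart. The median recruitment of the 7 was 0.25, against -0.09 over all genes. Where each array was centred on its own median, the median of all genes moved from -0.09 to 0.72, so signs in this comparison hold only relative to the scaling.

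**Figure D1:**
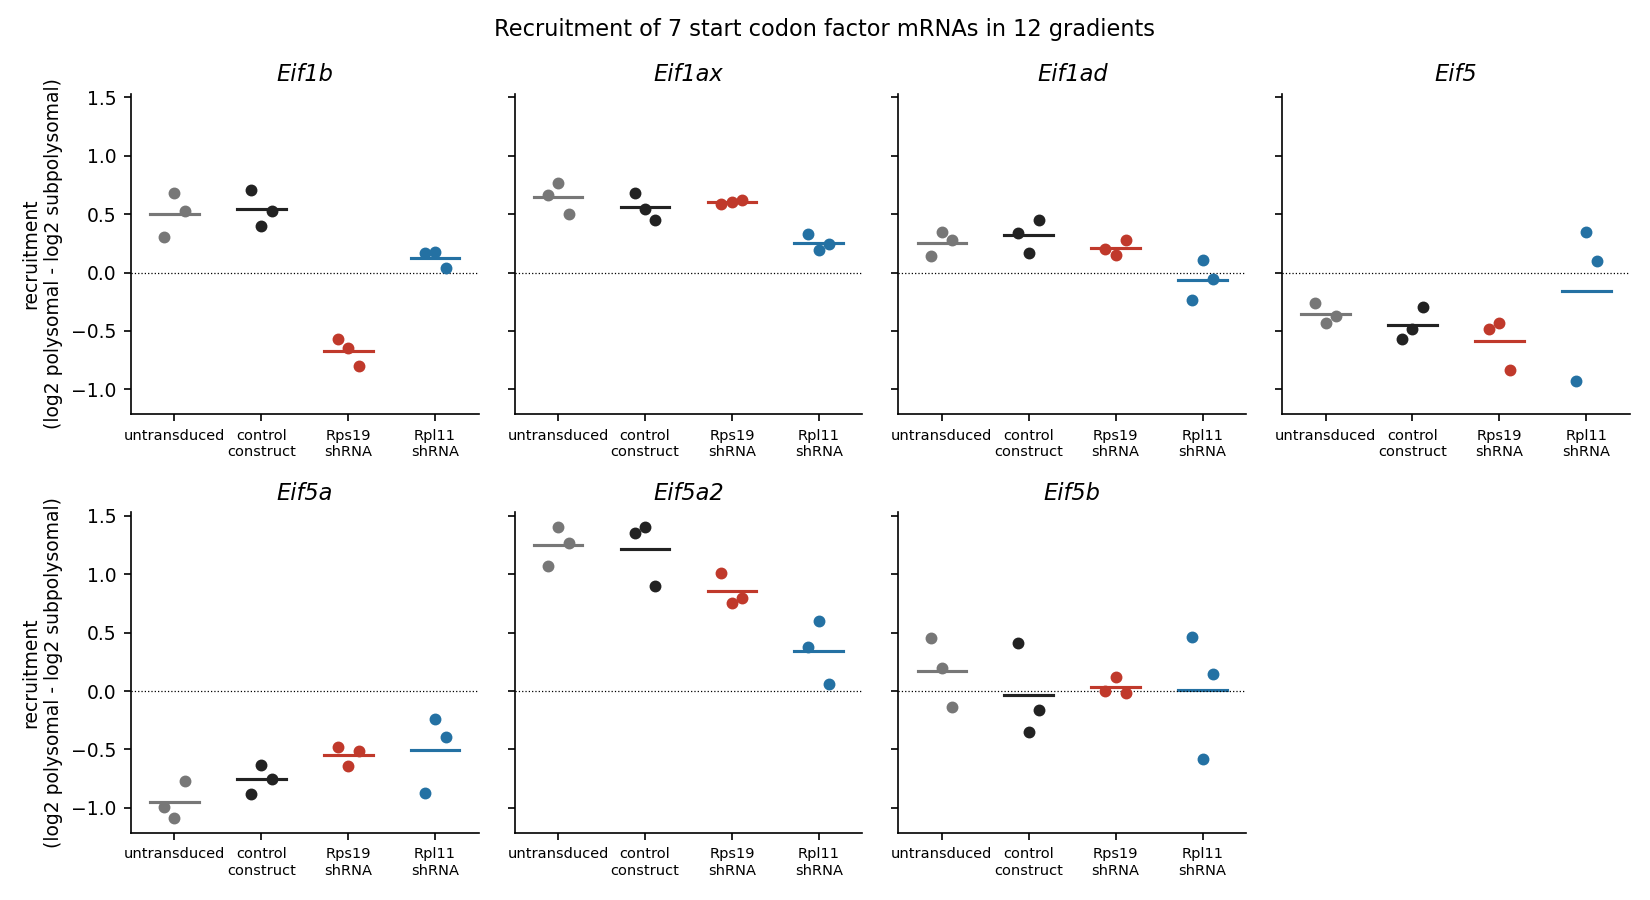
Recruitment (log2 polysomal minus log2 subpolysomal signal) of the 7 genes in each of 12 gradients. Points are gradients, bars are means of 3, and the dotted line marks equal signal in both pools. Eif1b lies between -0.57 and -0.80 under Rps19 shRNA and above 0 in the other 9 gradients, and Eif5a2 is lowest under Rpl11 shRNA.

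Eif5a2, the paralogue of eIF5A known for a narrower expression, had the highest recruitment among the chosen probe sets. Its probe set 1434593_at (chromosome 3) read 1264, 1385 and 1559 in the polysomal pools of untransduced cells and 597, 517 and 644 in the subpolysomal pools. Its recruitment was 1.07, 1.41 and 1.27, a 2.38-fold excess in the polysomal pool (mean 1.25 ± 0.17 SD, n = 3, limma adjusted p = 0.000103). All 3 gradients lay above those of the other 6 chosen probe sets. Its second probe set, 1438256_at, read 0.53, 0.32 and 0.49, on the same side but with a mean of 0.44, below the means of all 3 Eif1ax probe sets, so its first place depends on the probe set.

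Eif1ax encodes eIF1A, the partner of eIF1 on the scanning subunit. Its recruitment in untransduced cells was 0.66, 0.77 and 0.50 (mean 0.64 ± 0.14 SD, n = 3, limma adjusted p = 0.000406). Its other probe sets averaged 1.05 (highest value 1.12) and 0.83, so all 3 of them placed it on the polysomal side. Eif1b followed at 0.31, 0.68 and 0.52 (mean 0.50 ± 0.19 SD, n = 3, limma adjusted p = 0.00336). Eif1ad, which encodes a protein with an eIF1A-like domain, read 0.14, 0.35 and 0.28 and missed the threshold (limma adjusted p = 0.0608). Its second probe set averaged -0.08. The values of Eif1ax and Eif1b overlapped, as did those of Eif1b and Eif1ad and those of Eif1ad and Eif5b, so their order is not resolved by 3 gradients.

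Eif5b encodes the GTPase that joins the subunits, and its mRNA sat near 0. Recruitment of Eif5b was 0.45, 0.20 and -0.13 in untransduced cells (limma adjusted p = 0.514). Its probe set 1435592_at ranged from -1.76 to 2.30 over the 12 gradients at signals of 16.6 to 184, and carries little weight. Eif5 read -0.26, -0.43 and -0.37 and missed the threshold (limma adjusted p = 0.175), although its values did not overlap those of Eif5b. The next probe set in mean signal, 1415723_at, averaged -0.37 and passed as lower (limma adjusted p = 0.0303). Under median centring the Eif5 mean turned to 0.46 (limma adjusted p = 0.0467).

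Eif5a had the lowest recruitment among the chosen probe sets. Probe set 1451470_s_at (chromosome 11) read 29239, 27609 and 24676 in the polysomal pools and 58186, 58722 and 42073 in the subpolysomal pools of untransduced cells. Recruitment was -0.99, -1.09 and -0.77, a 1.93-fold excess in the subpolysomal pool (mean -0.95 ± 0.16 SD, n = 3, limma adjusted p = 0.000302). This sign is not secure: under quantile normalization the mean turned to 0.47 (limma adjusted p = 0.00724), under median centring it was -0.14 (limma adjusted p = 0.311), and the second probe set, 1437859_x_at, averaged 0.02. The first of these probe sets lay at a mean of 0.584 of the highest signal on its array, and the suffixes _s_at and _x_at mark probes that can match more than 1 transcript.

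The clearest spread among probe sets was within Eif5. Probe set 1456256_at (chromosome 12) read 9535, 10022 and 13568 in the subpolysomal pools of untransduced cells and only 248, 347 and 786 in the polysomal pools. Its recruitment there was -5.22, -4.82 and -4.10 (mean -4.71, SE 0.27), with an adjusted p = 5.16e-06 in a limma fit of all 19608 probe sets, of which 39.3% passed. Over all 12 gradients its subpolysomal signal was up to 38.5 times its polysomal signal, with a median of 28.7 times. The other 4 Eif5 probe sets averaged between -0.37 and 0.15 in the same gradients. The transcript region that each probe set reads was not looked up here.

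**Figure D2:**
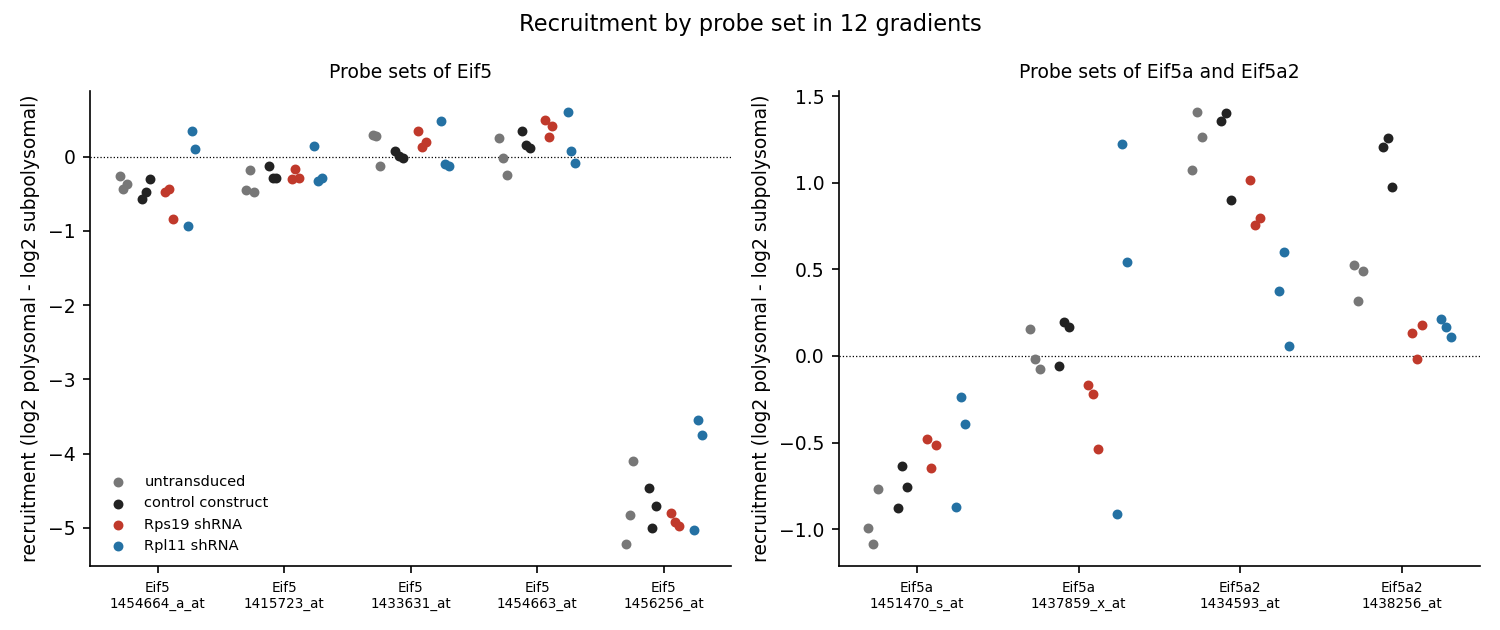
Recruitment (log2 polysomal minus log2 subpolysomal signal) in each gradient for the 5 probe sets of Eif5 and for the probe sets of Eif5a and Eif5a2, with points coloured by group. One Eif5 probe set lies near -4.71 in untransduced cells while the other 4 lie near 0, and both Eif5a2 probe sets are lower under Rpl11 shRNA than with the control construct.

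No member differed past the threshold between the control construct and untransduced cells. In recruitment and in level, 0 of 7 members passed the limma test between both groups, and 0 of 7 had an unadjusted p under 0.05. Over all genes 0% passed in either comparison, with 497 genes at an unadjusted p under 0.05 in recruitment and 260 in level. The widest member difference in recruitment was -0.20, for Eif5b (95% interval -0.83 to 0.42). The second Eif5a2 probe set, 1438256_at, differed more, at 0.44 ± 0.11 in untransduced cells and 1.15 ± 0.15 with the control construct (SD, n = 3), without passing the test.

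The question asked of the shRNA groups was which mRNAs leave or enter the polysomes when cells are short of a ribosomal protein. Under Rps19 shRNA, Eif1b was the 1 of 7 members that changed recruitment, against 0.87% of all genes (0.29% higher and 0.58% lower). Probe set 1428272_at, the only one for Eif1b (chromosome 9), read 3151, 3603 and 3970 in the polysomal pools with the control construct and 2804, 2886 and 3010 with Rps19 shRNA. In the subpolysomal pools it read 1922, 2731 and 2755 with the control construct and 4164, 4519 and 5256 with Rps19 shRNA. In both pools the 3 Rps19 gradients lay outside the range of the control construct and of untransduced cells, lower in the polysomes and higher below them.

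Recruitment of Eif1b was 0.71, 0.40 and 0.53 with the control construct and -0.57, -0.65 and -0.80 with Rps19 shRNA. The groups did not overlap, and the sign turned in all 3 gradients. The difference was -1.22 (95% interval -1.54 to -0.89, SE 0.15, limma adjusted p = 0.0294), a 2.33-fold lower ratio of polysomal to subpolysomal signal. The subpolysomal mean was 1.90-fold higher and the polysomal mean 1.23-fold lower. The polysomal share of the summed signal was 59.3% ± 2.6 with the control construct and 38.5% ± 2.0 with Rps19 shRNA (SD, n = 3). The level of Eif1b differed by 0.31 (95% interval -0.05 to 0.68, limma adjusted p = 0.407).

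The size of this difference was steady and its call was not. Across 13 other settings it stayed between -1.29 and -1.13 but passed the threshold in 3. Leaving out any 1 of the 6 gradients gave adjusted p values of 0.0729 to 0.13, with 0 to 3 genes called in all. In the fit of all 19608 probe sets, where 0.0051% passed, it had an adjusted p = 0.0513.

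**Figure D3:**
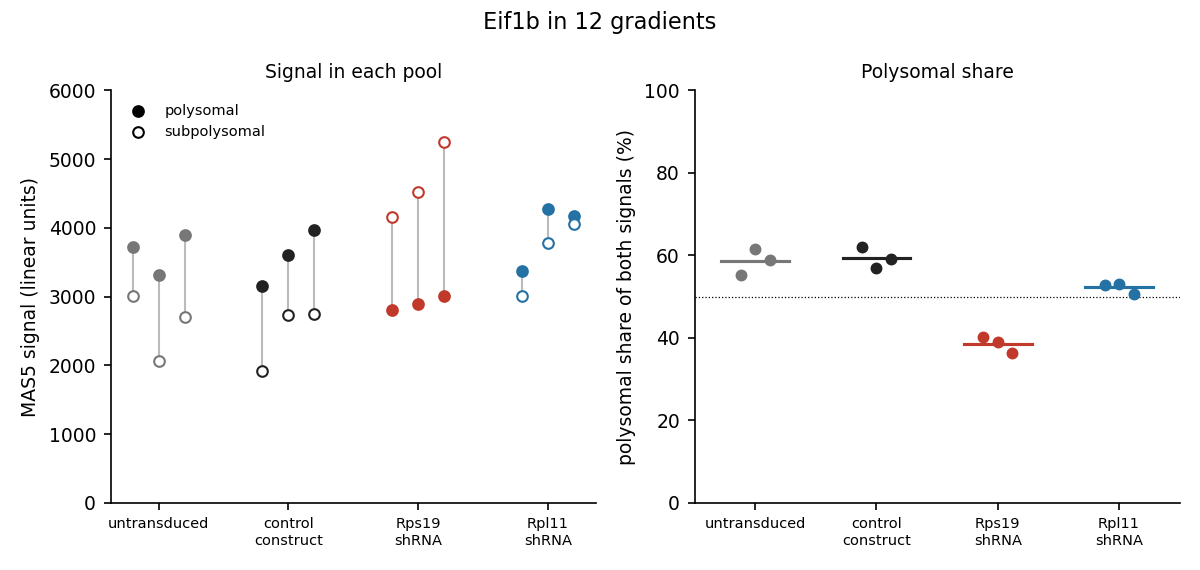
Eif1b in each gradient. Left, MAS5 signal in the polysomal (filled) and subpolysomal (open) pool, joined by a line for each gradient. Right, polysomal share of the summed signal in percent, with bars for the means of 3. Under Rps19 shRNA the subpolysomal signal is above the polysomal one in all 3 gradients, and the share is 36.4% to 40.2%.

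Eif1b recruitment under Rpl11 shRNA lay between those of the control construct and of Rps19 shRNA. It was 0.17, 0.18 and 0.04, below all 3 control values, a difference of -0.42 (95% interval -0.74 to -0.09) that missed the threshold (limma adjusted p = 0.124). Set directly against Rpl11 shRNA, the Rps19 value was lower by 0.80 (difference -0.80, SE 0.15, limma adjusted p = 0.0475). Eif1b was the 1 of 7 members to pass in that comparison, where 0.553% of all genes passed, 0.435% higher and 0.118% lower. Both comparisons share the Rps19 gradients. Eif1b kept this call in 2 of 15 other settings, with values from -0.85 to -0.74, and leaving out any 1 of the 6 gradients ended it.

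The recruitment profile of Eif1b over the 12 gradients was most like those of Cyb5r4 (Pearson r = 0.99), Lrrfip2 (r = 0.97) and Rab4a (r = 0.97), chosen as the top 3 of all tested genes. Their own differences under Rps19 shRNA were -1.38, -0.68 and -0.65. For Eif5 the most alike were Zfp148, Dpf1 and Cited4 (r = 0.95, 0.95 and 0.94), and for Eif5a they were Arhgef39, Zfp346 and Zfp689 (r = 0.94, 0.92 and 0.90). These correlations share the arrays and their scaling and are descriptions over n = 12 gradients.

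The other 6 members gave no call under Rps19 shRNA. Eif1ax read 0.59, 0.60 and 0.62 against 0.68, 0.55 and 0.45 with the control construct, a difference of 0.04 (95% interval -0.24 to 0.33). Eif1ad and Eif5 differed by -0.11 and -0.14, Eif5b by 0.07 and Eif5a by 0.21. Eif5a2 read 1.01, 0.75 and 0.80 against 1.36, 1.40 and 0.90, a difference of -0.36 (95% interval -0.79 to 0.06, limma adjusted p = 0.408). Its second probe set lay further from the control range, at 0.13, -0.02 and 0.18 against 1.20, 1.26 and 0.97, a difference of -1.05 (SE 0.14, limma adjusted p = 0.0513 over all probe sets). That probe set averaged 0.44 in untransduced cells, so the size of this difference depends on the control group used.

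Under Rpl11 shRNA the member that changed recruitment was Eif5a2, 1 of 7, where 5.67% of all genes passed (2.11% higher and 3.56% lower). Its polysomal signals were 1255, 1207 and 1470 against 1267, 1797 and 1551 with the control construct. Its subpolysomal signals were 967, 794 and 1411 against 490, 675 and 829. Recruitment was 0.37, 0.60 and 0.06 against 1.36, 1.40 and 0.90, so the groups did not overlap. The difference was -0.87 (95% interval -1.30 to -0.45, SE 0.19, limma adjusted p = 0.029), a 1.83-fold lower ratio.

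The second Eif5a2 probe set gave a like value. It read 0.21, 0.17 and 0.11 against 1.20, 1.26 and 0.97, a difference of -0.98 (SE 0.14) with an adjusted p = 0.0149 among all probe sets, of which 3.34% passed. By this probe set untransduced cells averaged only 0.44, with a lowest value of 0.32, against a mean of 0.16 with Rpl11 shRNA. The size of its difference therefore depends on the control group used. For the first probe set 7 of 15 other settings kept the call, with values from -1.03 to -0.73. The fit with the difference in Gapdh ratio between the pools as a covariate was among those 7, and 883 of all genes passed in it. With both Rpl11 gradients of high Gapdh ratio left out, a choice made after seeing the data, the difference was -0.84. The gradient then kept, Rpl11 replicate 1, had a Gapdh ratio of 0.99 in the polysomal and -0.46 in the subpolysomal pool. That fit therefore does not set RNA quality aside for a measure taken between pools. Leaving out control replicate 1 or 2, or Rpl11 replicate 1 or 3, ended the call (limma adjusted p = 0.112, 0.091, 0.0543 and 0.106).

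The differences of the 3 eIF1 family members under Rpl11 shRNA were all below 0, and none passed. Eif1ax read 0.33, 0.19 and 0.24, below its 3 control values (difference -0.31, 95% interval -0.59 to -0.02, limma adjusted p = 0.189). Eif1ad read -0.23, 0.11 and -0.05 (difference -0.38, 95% interval -0.69 to -0.07, limma adjusted p = 0.141). Subpolysomal signals of Eif1b, Eif1ax and Eif1ad were 1.47-, 1.48- and 1.38-fold higher than with the control construct. The second Eif1ad probe set did not share this, with a subpolysomal signal 1.26-fold lower and a recruitment difference of -0.03. The median signal of all probe sets was 65.7 to 86.7 on Rpl11 subpolysomal arrays, against 97.2 to 124.6 on the other subpolysomal arrays. Folds within a pool therefore hold only relative to the common scaling. The median difference over the 7 members was -0.31, against 0.02 over all genes.

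Eif5 was uneven within the Rpl11 group. Its brightest probe set read -0.93 in replicate 1 but 0.35 and 0.10 in replicates 2 and 3, the gradients of high Gapdh ratio. In replicate 1 the Gapdh ratio was 0.99 in the polysomal pool and -0.46 in the subpolysomal pool. The subpolysomal signal of this Eif5 probe set was 15739 in replicate 1 and 7476 and 7225 in replicates 2 and 3. Its polysomal signals were 8252, 9509 and 7729. The second Eif5 probe set, 1415723_at, had no such drop, with subpolysomal signals of 10319, 14383 and 16175. Eif5a showed the same unevenness in recruitment, at -0.87, -0.24 and -0.39. Eif5b ranged from -0.58 to 0.46.

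**Figure D4:**
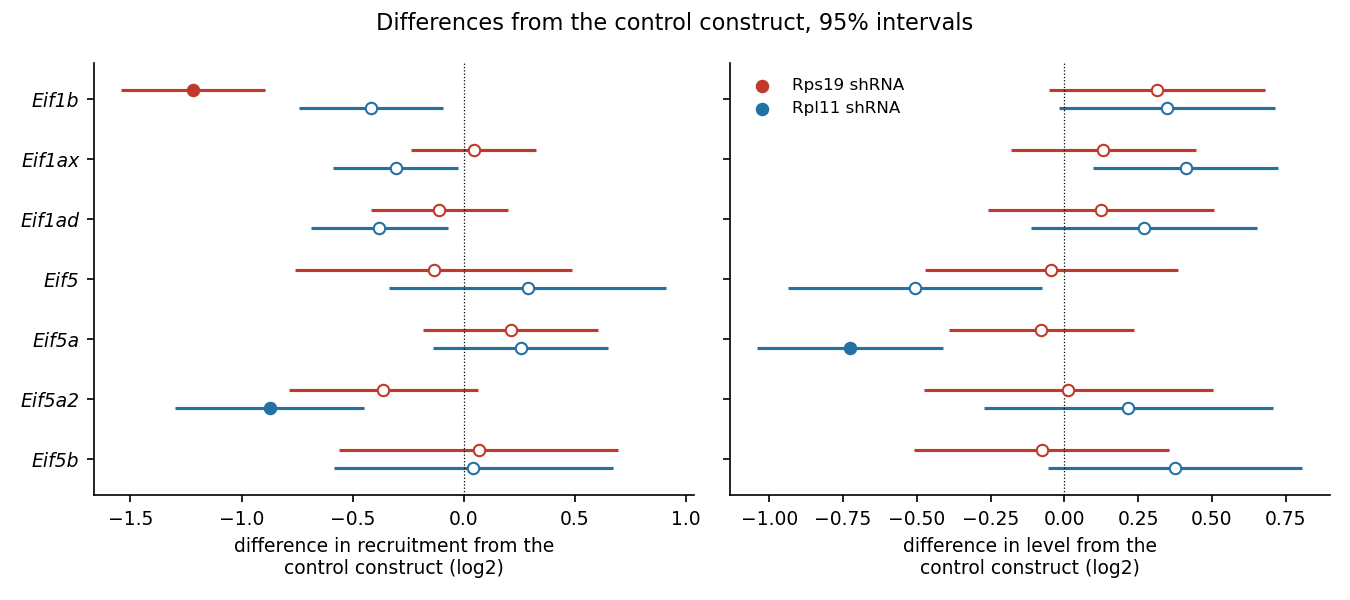
Differences from the control construct in recruitment (left) and level (right), on the log2 scale, with 95% intervals from limma. Filled points passed an adjusted p of 0.05 and open points did not. Eif1b recruitment under Rps19 shRNA (-1.22), Eif5a2 recruitment under Rpl11 shRNA (-0.87) and Eif5a level under Rpl11 shRNA (-0.73) are filled.

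The recruitment gap between the paralogues Eif5a and Eif5a2 differed among the groups by their chosen probe sets. By their second ones the test did not pass, which does not show that the gap was equal. The recruitment of Eif5a2 minus that of Eif5a was 2.06, 2.50 and 2.04 in untransduced cells and 2.23, 2.03 and 1.65 with the control construct. It was 1.49, 1.40 and 1.31 with Rps19 shRNA and 1.25, 0.84 and 0.45 with Rpl11 shRNA. Every shRNA gradient was below every gradient of both control groups. By these probe sets the mean of Eif5a2 was lower and that of Eif5a higher than with the control construct under both shRNAs. Means were 2.20 ± 0.26, 1.97 ± 0.30, 1.40 ± 0.09 and 0.84 ± 0.40 (SD, n = 3). A two-sided exact permutation test of the F statistic over the 4 groups gave p = 0.000455 (F = 13.9, 369600 arrangements), and p = 0.0143 without the 3 Rpl11 gradients, a choice made after seeing the data. A single pair was tested, so no adjustment over pairs was made. With the second probe set of both genes, also chosen after seeing the data, the call ended (exact permutation p = 0.184). The gap then averaged 0.42 in untransduced cells, 1.04 with the control construct, 0.41 with Rps19 shRNA and -0.12 with Rpl11 shRNA, so the Rps19 values overlapped those of untransduced cells. The Rpl11 values by these probe sets ran from -1.06 to 1.13.

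No member passed in level under Rps19 shRNA: 0 of 7 passed the limma test, and 0 of 7 had an unadjusted p under 0.05, against 0.807% and 15.2% of all genes. The differences ran from -0.08 for Eif5a to 0.31 for Eif1b. Same-numbered gradients of these groups deviated together in level, and with the replicate number as a block the count over all genes fell from 89 to 17 while that of members stayed at 0.

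Under Rpl11 shRNA the level of Eif5a fell, the only call among 7 members, where 20.2% of all genes passed (8.73% higher and 11.5% lower). Its polysomal signals were 18987, 22622 and 17463 against 28955, 29885 and 30137 with the control construct. Its subpolysomal signals were 34759, 26643 and 22951 against 53256, 46362 and 50884. All 3 gradients were below the range of both control groups in each pool. The level was 14.65, 14.58 and 14.29 against 15.26, 15.18 and 15.26, a difference of -0.73 (95% interval -1.04 to -0.41, SE 0.14, limma adjusted p = 0.00773), or 1.65-fold lower.

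Scaling and RNA quality moved with the Eif5a result. Under median centring, which shifts the median of all genes in this comparison from -0.08 to 0.32, the difference was -0.33 (limma adjusted p = 0.11), and under quantile normalization it was -0.53 (limma adjusted p = 0.067). With the Gapdh ratio as a covariate it was -0.49 (limma adjusted p = 0.143), and from Rpl11 replicate 1 alone -0.58 (limma adjusted p = 0.0739). That arm is then 1 gradient, which is assumed to vary like the other groups. The second probe set fell by 1.72 (limma adjusted p = 0.0131 over all probe sets, of which 22% passed), with levels of 13.28, 12.37 and 11.15 against 13.89, 13.95 and 14.13. Both gradients of high Gapdh ratio were the lowest of these. Against Rps19 shRNA directly, Eif5a was 0.65 higher with Rps19 than with Rpl11 shRNA (SE 0.14, limma adjusted p = 0.0111), 1 of 7 members where 20.5% of all genes passed (11.9% higher and 8.6% lower).

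The Eif5 level under Rpl11 shRNA depended on the probe set. The brightest read 13.48, 13.04 and 12.87 against 13.43, 13.78 and 13.70 (difference -0.51, 95% interval -0.94 to -0.08, limma adjusted p = 0.0875). The subpolysomal probe set 1456256_at read 9.97, 9.62 and 9.70 against 10.90, 11.16 and 11.24, a fall of 1.34 (difference -1.34, SE 0.26, limma adjusted p = 0.0071 over all probe sets). The other 3 Eif5 probe sets differed by 0.37, 0.37 and 0.39 in the opposite direction without passing. Eif1ax was 0.41 higher (95% interval 0.10 to 0.73, limma adjusted p = 0.063), Eif5b 0.38 and Eif5a2 0.22, none of them past the threshold. Under median centring they were 0.81, 0.78 and 0.62 higher and passed (limma adjusted p = 0.00294, 0.0141 and 0.0461). Eif1b (0.75, limma adjusted p = 0.00823) and Eif1ad (0.67, limma adjusted p = 0.013) then passed too.

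Of 15 partners of start codon recognition that were listed, 13 were tested. In untransduced cells 4 of 13 passed the limma test as higher than 0 and 2 as lower. Over all genes 19.5% and 21.4% did. Higher were Mcts1 (0.70) and Denr (0.58), which form a complex that acts in reinitiation and recycling. Bzw1 (0.55), a mimic of eIF5, and Eif2d (0.37) were higher too. Eif2a (-1.87), an alternative initiation factor, and Eif2s3x (-0.66), a subunit of eIF2, were lower, the latter turning to 0.15 under median centring. Partners that did not pass lay on both sides of 0, such as Eif6 (0.35) and Eif2s2 (-0.21). Eif2d lost its call under quantile normalization (0.20, limma adjusted p = 0.108) and without untransduced replicate 1 (0.33, limma adjusted p = 0.0584). In recruitment 0 of 13 passed the limma test under either shRNA, with 3 at an unadjusted p under 0.05 for Rps19 and 5 for Rpl11, where 14.9% and 22.1% of all genes were, and medians of 0.22 and 0.07. In level 0 of 13 passed under Rps19 shRNA, with 3 at an unadjusted p under 0.05, against 15.2% of all genes. Under Rpl11 shRNA the scanning helicases Dhx29 (0.73, SE 0.13, limma adjusted p = 0.00485) and Ddx3x (0.53, SE 0.14, limma adjusted p = 0.0251) rose, and Eif2s3x fell by 0.61 (SE 0.19, limma adjusted p = 0.0402). Dhx29 kept its call in all 15 other settings run. Ddx3x lost it without control replicate 1, 2 or 3 or Rpl11 replicate 2 (limma adjusted p = 0.0594 to 0.0881). Its value with the Gapdh ratio as a covariate was 0.65 (limma adjusted p = 0.0915). The Eif2s3x difference was -0.25 with that covariate (limma adjusted p = 0.573), -0.22 from Rpl11 replicate 1 alone (limma adjusted p = 0.563) and -0.21 under median centring (limma adjusted p = 0.38). Leaving out control replicate 1, 2 or 3, or Rpl11 replicate 2 or 3, also ended its call (limma adjusted p = 0.076 to 0.134).

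Of 12 listed genes of hypusine and polyamine synthesis, 8 were tested. In untransduced cells 3 of 8 passed the limma test as higher than 0 and 2 as lower, beside 19.5% and 21.4% of all genes. Those higher were Azin1 (0.96), the antizyme inhibitor, Dhps (0.43), which makes the first step of hypusine on eIF5A, and Sat1 (0.41), which breaks polyamines down. Dohh (0.33), Srm (0.22) and Oaz2 (0.15) were above 0 without passing. Odc1 (-0.88), the first enzyme of polyamine synthesis, and Oaz1 (-0.59), its antizyme, were on the subpolysomal side, and Oaz1 turned to 0.50 under quantile normalization and 0.22 under median centring. Under median centring Odc1 was -0.07 (limma adjusted p = 0.681). Dhps lost its call without untransduced replicate 1 or 2 (limma adjusted p = 0.201 and 0.133). Sat1 lost it without untransduced replicate 3 (limma adjusted p = 0.0998) and under quantile normalization (0.27, limma adjusted p = 0.0962). Under Rps19 shRNA 0 of 8 passed the limma test in recruitment, with 1 at an unadjusted p under 0.05, and 0 of 8 in level, with 2 such genes, beside the 14.9% and 15.2% of all genes given above. Under Rpl11 shRNA Sat1 recruitment fell by 0.97 (SE 0.16, limma adjusted p = 0.00995) while its level rose by 1.07 (SE 0.18, limma adjusted p = 0.00401). From Rpl11 replicate 1 alone these were -0.77 and 1.05. The Gapdh ratio of that gradient was uneven between its pools, so the recruitment value does not set RNA quality aside. The level of Dohh, the enzyme that completes hypusine, fell by 1.34 (SE 0.27, limma adjusted p = 0.00882). Its difference was -0.52 with the Gapdh ratio as a covariate (limma adjusted p = 0.222) and -0.69 from Rpl11 replicate 1 alone (limma adjusted p = 0.0971), and neither passed.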

How the data were processed

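Signals from 24 Affymetrix mouse arrays were used. Per the submitters' processing notes they were made with MAS5, and the deposited values are intensities on a linear scale. Their 2% trimmed mean is 499.77 to 499.81 on the 6 Rpl11 arrays and 500.00 on the other 18. The authors also deposited a polysomal share of the summed signals as a fraction, which was recomputed from the intensities to within 7.11e-10. Of 45101 probe sets 34958 name 1 gene symbol, 932 several and 9211 none. A pseudocount of 7.85 (0.1 of the median signal) was added, log2 taken, and the lower 50% by mean log2 signal left out (below 6.17). The brightest probe set per gene gave 11035 genes. limma 3.58.1 (R 4.3.3) fitted the 4 groups of 3 gradients, with Benjamini-Hochberg adjustment over all genes and a threshold of 0.05. The number of arrays limits the precision. The members, gene lists and their rules (all listed members, up to 4 list genes past the threshold per comparison, the 3 most alike genes) were chosen with earlier results of these data known. Scripts were tested on simulated data.

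Replicate numbers are shared between groups in the sample titles, which were used here. The descriptions number the Rpl11 samples differently from their titles. Deviations of same-numbered gradients correlated at -0.13 to 0.09 in recruitment (0 of 18 pairs above 0.1) and at -0.33 to 0.53 in level. All 3 pairs of the Rps19 and control groups were above 0.1 in level (0.53, 0.29 and 0.21). No pair with the Rpl11 group was, the highest being 0.08. The main limma fits used the group only and no pairing, also in that comparison. The replicate number entered as a block in a separate setting, run for every comparison. Rps19 replicate 3 differs from the other arrays in its label, which has the unexplained word puro. Other scalings, pseudocounts, filters, covariates and probe sets and the omission of each gradient were tried.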

Additional observations from a re-analysis of the deposited data

Results flagged for a closer look

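Differences between both shRNA groups were flagged where the direct comparison of Rps19 with Rpl11 shRNA passed the limma test. In recruitment this was Eif1b, lower with Rps19 shRNA (-0.80, limma adjusted p = 0.0475). In level, Eif5a (0.65), Dohh (1.17), Oaz2 (0.58) and Srm (0.66) were higher with Rps19 than with Rpl11 shRNA. Eif3c (-0.66), Dhx29 (-0.57) and Sat1 (-1.47) were lower with Rps19 than with Rpl11 shRNA. The limma adjusted p values of these level differences ran from 0.00103 for Sat1 to 0.0226 for Oaz2. The Rpl11 arrays also differ from the rest in their Gapdh 3′ to 5′ ratio. As a covariate, the mean of that ratio over both pools was used for level, and its difference between the pools for recruitment. With it Sat1 kept its call and the other 7 lost theirs, though the value of Eif1b recruitment hardly moved. The values were then 0.39 for Dohh, 0.29 for Oaz2, 0.45 for Srm, 0.42 for Eif5a, -0.64 for Eif3c, -0.61 for Dhx29 and -0.79 for Eif1b recruitment. Under median centring Eif5a (0.30), Oaz2 (0.23) and Srm (0.31) also lost their calls, as did Eif1b.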

How the results depend on the processing

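Values are numbers of genes past the threshold unless said otherwise, members being the 7 genes of the set, and the cause of each shift was not tested. Leaving out 1 gradient in turn gave 3050 to 3893 for recruitment in untransduced cells (members 4 to 4), 0 to 3 for Rps19 recruitment (members 0 to 0), 133 to 601 for Rpl11 recruitment (members 0 to 1), 0 to 128 for Rps19 against Rpl11 recruitment (members 0 to 0) and 0 to 3 for recruitment with the control construct against untransduced cells. For level it gave 3 to 14 for Rps19, 1081 to 3595 for Rpl11 (members 1 to 3), 1182 to 3497 for Rps19 against Rpl11 (members 1 to 2) and 0 to 1 for the control construct against untransduced cells. The p of the paralogue difference was 0.00026 to 0.00344 when 1 gradient was left out, and 0.00896 under quantile normalization.

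Median centring gave 7164 genes in untransduced recruitment (95.2% of them higher, against 47.6% as reported and 60.4% under quantile normalization), 0 for Rps19 recruitment (members 0), 166 for Rpl11 recruitment (members 0; 19.9% higher against 37.2%), 1 for Rps19 against Rpl11 recruitment (members 0; none higher against 78.7%), 57 for Rps19 level (57.9% higher against 41.6%) and 3667 for Rpl11 level (members 5; 89.6% higher against 43.2%, and 55.9% under quantile normalization). It gave 2 members for Rps19 against Rpl11 level, where 14.9% of called genes were higher, against 58.0% as reported and 46.3% under quantile normalization. It turned Eif5 to 0.46, Eif2s3x to 0.15 and Oaz1 to 0.22 in untransduced recruitment. Quantile normalization turned Eif5a to 0.47 and Oaz1 to 0.50 there, and gave 15 genes and 0 members for Rps19 against Rpl11 recruitment (60% higher) and 0 members for Rpl11 level. Eif5a by its second probe set was 0.021 there. A pseudocount of 0.5 of the median gave 98 genes for Rps19 against Rpl11 recruitment.

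Without the filter on low signal the counts were 0 for Rps19 recruitment (members 0), 95 for Rpl11 recruitment (members 0), 0 for Rps19 against Rpl11 recruitment (members 0), 1 for control against untransduced recruitment, 7 for Rps19 level, 1342 for Rpl11 level and 1430 for Rps19 against Rpl11 level. With only the groups compared in the fit they were 0 (members 0) for each of the 3 shRNA comparisons in recruitment, and 6, 612 (members 0) and 934 (members 0) in level. With the replicate block, by the numbers in the titles, they were 0 for Rps19 recruitment (members 0), 335 for Rpl11 recruitment, 0 for Rps19 against Rpl11 recruitment (members 0) and 17 for Rps19 level, with 2 members for Rps19 against Rpl11 level. In recruitment same-numbered gradients did not deviate together (0 of 18 pairs above 0.1). With the block Eif1b recruitment lost its call against the control construct (limma adjusted p = 0.0906) and against Rpl11 shRNA (limma adjusted p = 0.111). Its differences were unchanged, and the cause of the loss was not tested. The block changed no other call among the 7 members.

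With the Gapdh ratio as a covariate the counts were 421 for Rpl11 level (members 0) and 784 for Rps19 against Rpl11 level (members 0). With its difference between the pools as the covariate the counts were 883 for Rpl11 recruitment, where Eif5a2 kept its call, and 55 for Rps19 against Rpl11 recruitment (members 0). With both Rpl11 gradients of high ratio left out, an alternative chosen after seeing the data that leaves an arm of 1 gradient assumed to vary like the other groups, they were 0 for Rpl11 recruitment (members 0), 1 for Rps19 against Rpl11 recruitment (members 0), 716 for Rpl11 level (members 0) and 987 for Rps19 against Rpl11 level (members 0). The exact test of the paralogue difference without the 3 Rpl11 gradients, also chosen after seeing the data, gave p = 0.0143, and with the second probe set of both genes it gave p = 0.184.

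The 3 gradients a group, common scaling of every array, uneven RNA quality under Rpl11 shRNA and 1 probe set for Eif1b limit these results.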
